A study of Arabidopsis thaliana with 4 samples.

Results

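The 10 genes described here act in the synthesis of salicylic acid, its control and its signalling in Arabidopsis, and were chosen by locus for their roles: ICS1, EDS5 and PBS3 of synthesis, EDS1, PAD4 and SAG101 of the EDS1 family, the receptor gene NPR1, the transcription factor genes SARD1 and CBP60G, and ALD1 of the allied pipecolic acid route. All 10 were on the array of 21500 gene probes, with 1 probe each, and all 10 were among the 18854 genes compared. Their probes were well above background in all 8 channels, none was saturated and none was left out as an outlier.

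Salicylic acid is the hormone through which Arabidopsis leaves restrict biotrophic pathogens. Most of it is made from isochorismate: a plastid synthase makes this precursor, a transporter passes it to the cytosol, and an amido synthetase joins it to glutamate, after which it breaks down to salicylic acid. The lipase-like proteins of the EDS1 family relay signals from immune receptors into this route, calmodulin-binding protein 60 family factors switch on its genes, and the receptor NPR1 carries the hormone signal to defence genes.

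The RNA came from rosette leaves of Arabidopsis thaliana plants 3 weeks old, all of the Col-0 ecotype. The transformants OX17 and OX7 were independent plants of the first transgenic generation, each over-expressing TaSK5, a wheat GSK3/Shaggy-like kinase, under the 35S promoter, which comes from a plant virus and drives strong expression throughout the plant. They were set against untransformed wild-type plants, no treatment is named, and the purpose was to find which transcripts the wheat kinase changes. Each transformant was hybridised with wild-type RNA to 2 two-colour Agilent arrays, replicate 1 carrying TaSK5 RNA in Cy5 and replicate 2 carrying it in Cy3. These 2 arrays repeat 1 RNA pair, so each transformant was 1 plant and 1 replicate. Whether 1 wild-type RNA served both transformants is not given. The p-values rest on the spread between the 2 transformant means, which limma moderates with that of all genes compared. They measure no spread between further plants. TaSK5 itself was not analysed here.

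Between 86.4% and 95.9% of gene probes were well above background in the TaSK5 channels, against 88.9% to 96.0% in the wild-type channels, and precision is limited by there being only 4 arrays. Both lowest shares belonged to OX7 replicate 1. Its median Cy5 intensity, which there is the TaSK5 channel, was 148, against 344 to 433 on the other arrays. Log2 ratios over all genes spread about as widely on both OX17 arrays, with SDs of 0.53 and 0.52, and less widely on the OX7 arrays, with SDs of 0.26 and 0.27. All 6 leaf markers were well above background in all 8 channels, but spots of 5 of them were saturated, so their ratios are not used. Root markers were well above background in 32 of 32 channel readings and floral markers in 38 of 40, so this flag does not tell tissues apart. The medians of the 4 root markers were -0.07 in OX17 and -0.02 in OX7 (log2 ratio), and those of the 5 floral markers were -0.05 in OX17 and -0.22 in OX7. One marker of each list was lower on all 4 arrays: SCR of the root list, at -0.70 ± 0.42, and SEP3 of the floral list, at -0.44 ± 0.12 (mean ± SD of the log2 ratio, n = 2 transformants; limma adjusted p = 0.846 for each). SCR had a mean wild-type signal of 9.11 log2 units, and whether its ratio reflects root tissue was not tested. The part of these markers in the results was not tested.

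All 10 genes had more signal in OX17 than in wild type on both OX17 arrays, a pattern that 30.7% of all genes showed, while 32.5% were lower on both. Leaves are mixed tissue, so fewer cells of a type and less RNA per cell cannot be told apart in any of these values. In OX7 the same was true of 2 of the 10, PBS3 and PAD4, where 29.5% of all genes did so, and 4 of the 10 were lower on both OX7 arrays, where 30.3% of all genes were. Those 4 were EDS5, EDS1, SAG101 and SARD1, so their arrays had opposite signs in the transformants; 16.9% of all genes had opposite signs, and 7.81% had them in this direction. In other processing settings 1 or both OX7 arrays of EDS5, EDS1 or SAG101 stood above 0. Of the 4, only SARD1 kept these signs on every array in all 14 alternatives that give array values. Those that changed only the probe filter or kept flagged spots left the members' ratios unchanged. The median log2 ratio of the 10 was 0.85 in OX17 and 0.04 in OX7, against medians over all genes of -0.01 and -0.0027. The ratio of every member was larger on both OX17 arrays than on either OX7 array, which held for 25% of all genes, the reverse also holding for 25%. In EDS5 and EDS1 the means were at least 2-fold apart as well, 2 of 10 where 2.7% of all genes were. With limma on the 2 transformant means, 0 of the 10 passed a Benjamini-Hochberg adjusted p of 0.05 in either direction, as did 0 of all genes (0%). Their adjusted p-values ran between 0.846 and 0.915. At an unadjusted p under 0.05, 1 of the 10 passed, which was PBS3, against 4.38% of all genes. No test between OX17 and OX7 can be had from 1 RNA pair each, so differences between them are given as measured.

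**Figure D1:**
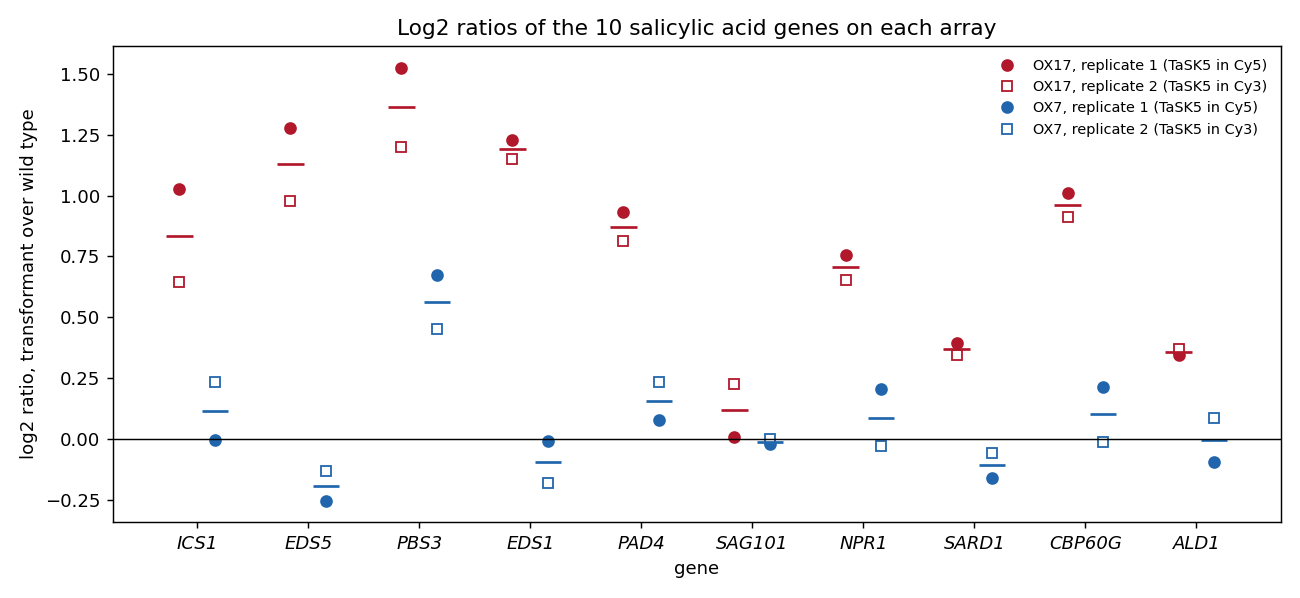
Log2 ratio of transformant over wild type (vertical axis) for each of the 10 genes (horizontal axis), with 1 point per array, OX17 in red and OX7 in blue, and bars at the mean of a transformant's 2 arrays. The red points lie above the blue points of the same gene throughout, and PBS3 is the gene with the highest points in both transformants.

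All 3 synthesis genes were above wild type on both OX17 arrays, while in OX7 PBS3 alone of the 3 was above it on both. ICS1 (AT1G74710), the isochorismate synthase that commits chorismate to this route, had log2 ratios of 1.03 and 0.64 on the OX17 arrays, against -0.0027 and 0.23 on the OX7 arrays. OX17 was thus 1.79-fold above wild type, while the OX7 arrays lay on both sides of 0. The mean of both transformants was 0.48 ± 0.51 (SD, n = 2 transformants; limma adjusted p = 0.846). EDS5 (AT4G39030), the transporter that exports isochorismate from plastids, had log2 ratios of 1.28 and 0.98 in OX17 and of -0.25 and -0.13 in OX7. The arrays of the transformants fell on opposite sides of 0, with OX17 2.19-fold above wild type, and the mean was 0.47 ± 0.94 (SD, n = 2; limma adjusted p = 0.849). The difference between OX17 and OX7 was 1.32 log2 units, the largest of the 10, with EDS1 close behind at 1.29. This order turned in some other settings. EDS1 and EDS5 differed by 1.17 and 1.06 without background subtraction, and by 1.43 and 1.30 with median centring.

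PBS3 (AT5G13320), the amido synthetase that joins isochorismate to glutamate, had the largest ratio in both transformants. Its log2 ratios were 1.53 and 1.20 in OX17 and 0.68 and 0.45 in OX7. All 4 arrays lay above 0, at 2.57-fold in OX17 and 1.48-fold in OX7. The mean of 0.96 ± 0.57 (SD, n = 2) had an unadjusted p of 0.0315 and a limma adjusted p of 0.846. PBS3 stood at percentile 98.4 of all genes by its OX17 ratio and at percentile 97.8 by its OX7 ratio. PBS3 and PAD4 were the 2 of 10 genes higher on all 4 arrays, where 12.1% of all genes were, and 0 of 10 were lower on all 4, where 12% were. With the spread of the arrays scaled to be equal, the OX17 and OX7 arrays of PBS3 overlapped, at 1.17 and 0.86 in OX17 and at 0.99 and 0.56 in OX7.

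Within the EDS1 family the genes differed. EDS1 (AT3G48090), the shared partner of the other two, had log2 ratios of 1.23 and 1.15 in OX17 and of -0.0071 and -0.18 in OX7. OX17 was 2.28-fold above wild type and OX7 close to it, and the mean was 0.55 ± 0.91 (SD, n = 2; limma adjusted p = 0.846). AT3G48080, annotated in the files as an EDS1-like protein and chosen after its values were seen, ran the same way, at 1.14 and 0.94 in OX17 and at -0.25 and -0.39 in OX7. It is a close copy of EDS1 in Col-0, and hybridisation of either transcript to the other's probe was not tested. PAD4 (AT3G52430), which forms a complex with EDS1 that promotes salicylic acid synthesis, had log2 ratios of 0.93 and 0.81 in OX17 and of 0.076 and 0.23 in OX7. All 4 were above 0, with a mean of 0.51 ± 0.51 (SD, n = 2; limma adjusted p = 0.846), and OX17 lay 1.83-fold above wild type.

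SAG101 (AT5G14930), the alternative partner of EDS1, first described as a leaf senescence gene, was the member with the smallest ratios. They were 0.0090 and 0.23 in OX17 and -0.021 and -0.0026 in OX7, so 3 of its 4 arrays lay at about 0. Its mean was 0.05 ± 0.09 (SD, n = 2; limma adjusted p = 0.915), and its OX17 ratio stood at percentile 68.4 of all genes. The OX17 arrays fell on both sides of 0 in 2 other settings, at -0.0013 and 0.23 in the authors' deposited table and at -0.08 and 0.53 with median centring in place of loess.

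NPR1 (AT1G64280), a salicylic acid receptor and co-activator of defence genes, had log2 ratios of 0.76 and 0.65 in OX17 and of 0.20 and -0.030 in OX7. The OX17 arrays lay close together, 1.63-fold above wild type, and the mean was 0.40 ± 0.44 (SD, n = 2; limma adjusted p = 0.846). The paired transcription factor genes, which both act on the ICS1 promoter, differed in size. CBP60G (AT5G26920), which binds calmodulin, had log2 ratios of 1.01 and 0.91 in OX17 and of 0.21 and -0.011 in OX7, with a mean of 0.53 ± 0.61 (SD, n = 2; limma adjusted p = 0.846). SARD1 (AT1G73805), which does not need calmodulin, had 0.40 and 0.35 in OX17 and -0.16 and -0.057 in OX7. Its arrays fell on opposite sides of 0 in the 2 transformants, and its mean of 0.13 ± 0.34 (SD, n = 2; limma adjusted p = 0.877) was among the 2 smallest. OX17 was 1.95-fold above wild type for CBP60G and 1.29-fold above it for SARD1.

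ALD1 (AT2G13810), the aminotransferase that starts pipecolic acid synthesis from lysine, had log2 ratios of 0.34 and 0.37 in OX17 and of -0.096 and 0.086 in OX7. Its OX17 arrays were the closest pair among the 10, 0.027 log2 units apart, and the mean was 0.18 ± 0.26 (SD, n = 2; limma adjusted p = 0.847). With median centring its OX7 arrays, at -0.03 and 0.27, overlapped the OX17 arrays, at 0.25 and 0.48. By OX17 ratio, ALD1 and SARD1 stood at percentiles 85.3 and 85.9 of all genes, while the 7 members other than these and SAG101 stood between percentiles 93.8 and 98.4. ALD1 and SAG101 had the lowest mean TaSK5 signals of the 10, 7.51 and 7.31 log2 units, and the offset pulls dim ratios towards 0. The OX17 means of ALD1 and SAG101 were 0.49 and 0.18 with normexp at offset 0, and 0.60 and 0.27 with the Agilent processed log ratio. The gap between the repeat arrays of a transformant reached 0.39 log2 units among the 10, for ICS1 in OX17. None of the 10 was 2-fold lower on both arrays of a transformant, where 1.99% of all genes were in OX17 and 0.0955% in OX7. Members at least 2-fold above wild type on both OX17 arrays were PBS3 and EDS1, 2 of 10 where 2.56% of all genes were, and 0 of 10 were in OX7, where 0.483% were. The OX17 count was 0 with median centring, 0 with scaling between arrays, 5 with the Agilent processed log ratio and 5 without OX17 replicate 2.

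**Figure D2:**
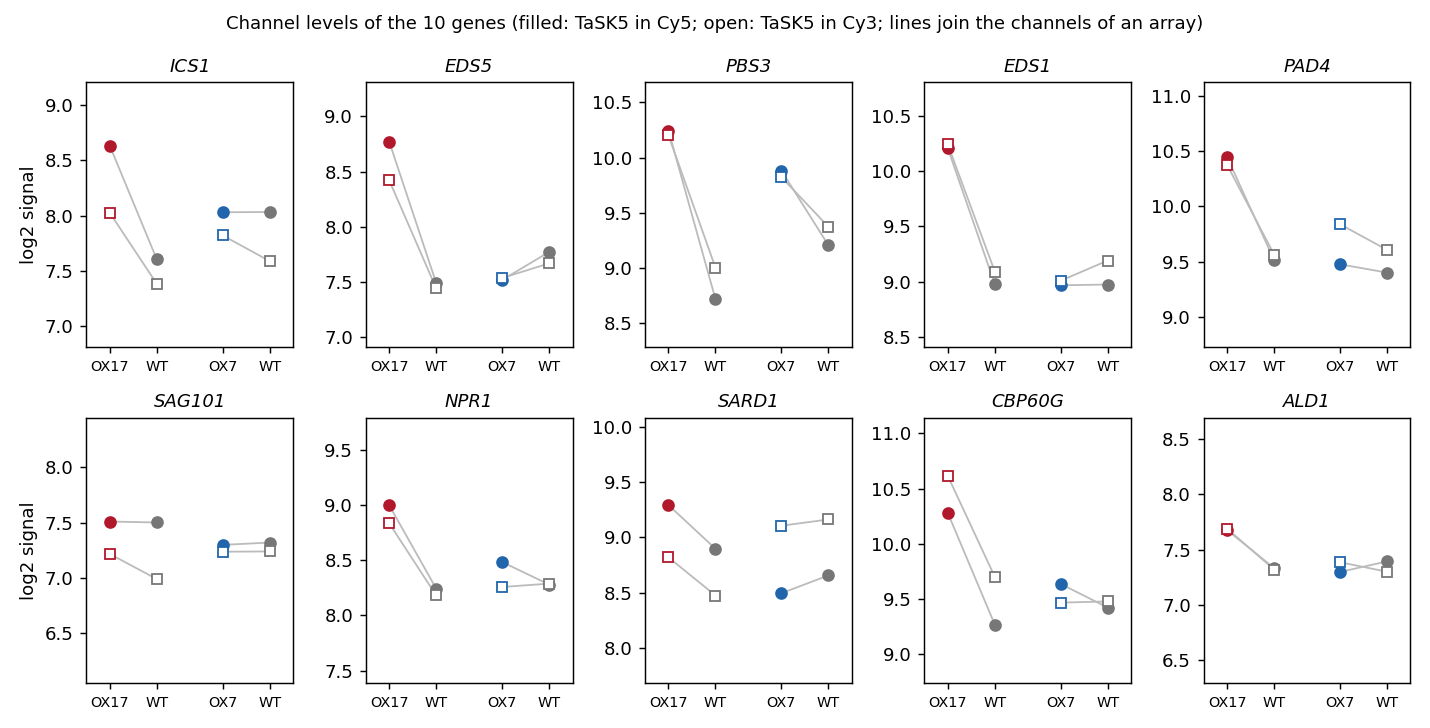
Normalised log2 signal (vertical axis, each panel spanning the same range of log2 units) of each gene in the transformant and in the wild-type channel of the same array, with OX17 left of its wild type and OX7 left of its wild type. Lines join the channels of an array. EDS1 and NPR1 stand high in OX17 and nearly level in the other channels, and SARD1 differs between the arrays of a transformant, with replicate 1 the higher in OX17 and replicate 2 the higher in OX7.

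A ratio can differ between transformants because the TaSK5 channel or the wild-type channel differs, so the channels were compared one at a time. Levels are log2 signals after loess and quantile scaling of array brightness, compared within a probe and within a dye orientation. Both channels of an array read the same spots, so a spot or array effect can move both together, while their ratio is free of it. The part of such effects was not tested, so the share of each channel is given here and below only as measured. In the TaSK5 channel, 8 of the 10 genes were higher in OX17 than in OX7 in both dyes, where 34.1% of all genes were, and 0 were lower, where 30.8% were. In the wild-type channel, 4 of the 10 were lower on the OX17 arrays in both dyes, where 32.9% of all genes were, and 0 were higher, where 33.1% were. The median difference over the 10 was 0.47 log2 units in the TaSK5 channel and -0.06 in the wild-type channel, against 0.0029 and -0.02 over all genes. The wild-type differences of the 10 had an SD of 0.16, compared with 0.40 over all genes.

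For EDS1 nearly the whole difference lay in the TaSK5 channel. Its log2 signals were 10.21 and 10.24 in OX17 and 8.97 and 9.01 in OX7, and those of wild type were 8.98 and 9.09 on the OX17 arrays and 8.97 and 9.19 on the OX7 arrays. The 4 wild-type values and both OX7 values thus lay together, and only the OX17 values were apart. NPR1 had a similar pattern, with 9.00 and 8.83 in OX17 and 8.48 and 8.26 in OX7, against wild-type signals of 8.24 and 8.18 with OX17 and 8.28 and 8.29 with OX7. CBP60G differed by 0.89 in the TaSK5 channel and by 0.03 in the wild-type channel (mean OX17 minus OX7 log2 signal), PAD4 by 0.75 and 0.03, and ALD1 by 0.34 and -0.02.

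In the 3 synthesis genes both channels differed. ICS1 differed by 0.40 in the TaSK5 channel and by -0.32 in the wild-type channel, EDS5 by 1.07 and -0.25, and PBS3 by 0.37 and -0.43. The wild-type signals of ICS1 overlapped, at 7.60 and 7.38 on the OX17 arrays and 8.03 and 7.59 on the OX7 arrays. The wild-type signals of PBS3 were 8.72 and 9.00 on the OX17 arrays, below the 9.21 and 9.38 of the OX7 arrays. Each wild-type value of EDS5 on the OX17 arrays, 7.49 and 7.44, was likewise below the 7.77 and 7.67 on the OX7 arrays. Transformant and wild type were read on the same array, and the larger ratios of these genes in OX17 hold both a higher TaSK5 signal and a lower wild-type signal than the OX7 arrays had. The channels of SARD1 had no steady order, with TaSK5 differences of 0.80 on replicate 1 and -0.29 on replicate 2, and wild-type differences of 0.24 and -0.69. SAG101 differed by 0.10 in the TaSK5 channel and -0.03 in the wild-type channel.

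**Figure D3:**
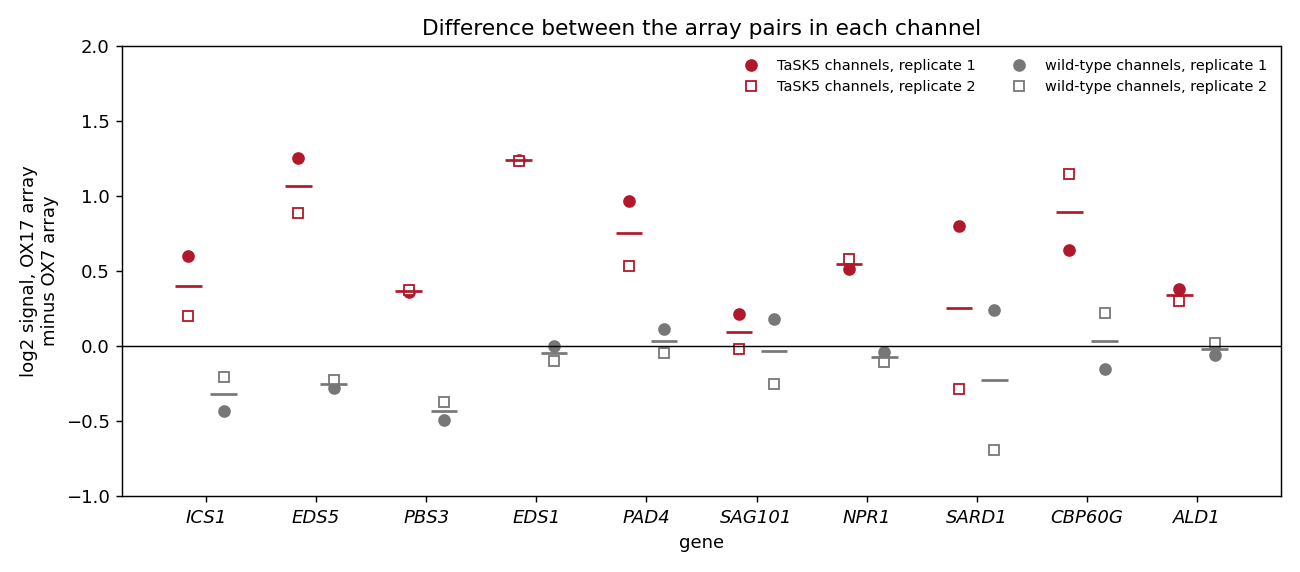
Difference in normalised log2 signal between the OX17 array and the OX7 array of the same dye orientation (vertical axis) for each gene (horizontal axis), in the TaSK5 channels (red) and the wild-type channels (grey). Filled points are replicate 1, open points replicate 2, and bars their mean. EDS5, EDS1, PAD4 and CBP60G have the largest differences in the TaSK5 channels, and ICS1, EDS5 and PBS3 the lowest means in the wild-type channels.

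Other genes of salicylic acid metabolism and signalling were described through 7 lists of 62 loci, of which 60 were on the array and compared. Of these 60, 22 were higher on all 4 arrays and 1 was lower, beside 12.1% and 12% of all genes, and 47 were higher and 5 lower on both OX17 arrays, beside 30.7% and 32.5% of all genes. In OX7, 28 were higher and 20 lower on both arrays, beside 29.5% and 30.3% of all genes. These counts need readings on all 4 arrays, so they leave out GRX480, which had 1 outlier spot. The median log2 ratio of the 60 was 0.50 in OX17 and 0.06 in OX7. None of the 60 passed the limma test over all genes (9 had an unadjusted p under 0.05, beside 4.38% of all genes).

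Genes whose products remove or modify salicylic acid had the largest OX17 median, at 1.36, with 0.19 in OX7. In this list 6 of 8 genes had ratios above 0 on each of the 4 arrays, beside 12.1% of all genes, and 0 had ratios below it, beside 12%. MES9 (AT4G37150), a methyl esterase that acts on methyl salicylate, had log2 ratios of 1.94 and 2.23 in OX17 and 0.78 and 1.00 in OX7, with a mean of 1.49 ± 0.84 (SD, n = 2; limma adjusted p = 0.846). DLO1 (AT4G10500), a salicylic acid hydroxylase, had 1.38 and 1.64 in OX17 and 0.16 and 0.17 in OX7. DMR6 (AT5G24530), a second hydroxylase of salicylic acid, had 1.52 and 1.75 in OX17 but -0.68 and -0.29 in OX7. The methyltransferase gene BSMT1 (AT3G11480), whose enzyme makes methyl salicylate, averaged 1.58 in OX17 and -0.03 in OX7. The amido synthetase gene GH3.5 (AT4G27260) averaged 0.64 in OX17 and 0.39 in OX7. Over the 8 genes the median OX17 minus OX7 difference was 0.26 in the TaSK5 channel and -0.66 in the wild-type channel. The wild-type channel held the larger part for MES9, at 0.40 in the TaSK5 channel and -0.79 in the wild-type channel, while both channels were lower with OX17 for GH3.5, at -0.42 in the TaSK5 and -0.67 in the wild-type channel, and for the glucosyltransferase gene UGT74F2 (AT2G43820), at -0.57 and -1.58. DLO1 was split between the channels, at 0.69 in the TaSK5 channel and -0.66 in the wild-type channel. DMR6 and BSMT1 differed mostly in the TaSK5 channel, at 1.87 against -0.25 in the wild-type channel for DMR6 and at 1.23 against -0.39 for BSMT1.

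Downstream of ALD1, FMO1 (AT1G19250), the monooxygenase that turns pipecolic acid into its N-hydroxy form, had log2 ratios of 1.33 and 1.24 in OX17 and 0.27 and 0.33 in OX7. It was higher on all 4 arrays, with a mean of 0.79 ± 0.70 (SD, n = 2; limma adjusted p = 0.846). UGT76B1 (AT3G11340), which attaches glucose to N-hydroxypipecolic acid and salicylic acid, had 0.91 and 1.13 in OX17 and -1.70 and -1.35 in OX7. Its difference of 2.54 log2 units was the largest among the named genes and was 0.29 in the TaSK5 channel and -2.25 in the wild-type channel. AT5G52810, which the files call a putative protein, averaged 1.02 in OX17 and -0.59 in OX7, with a difference of 0.58 in the TaSK5 channel and -1.03 in the wild-type channel.

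Of the 12 listed regulators of ICS1, 9 were higher and 0 lower on all 4 arrays, beside 12.1% and 12% of all genes. Their median log2 ratio was 0.50 in OX17 and 0.28 in OX7. The 2 largest ratios in each transformant belonged to NAC019 and RD26, which with NAC055 are NAC repressors of ICS1 that jasmonate signalling induces. NAC019 (AT1G52890) had 2.41 and 2.47 in OX17 and 1.85 and 1.86 in OX7, RD26 (AT4G27410) had 2.26 and 2.66 in OX17 and 1.39 and 1.96 in OX7, and NAC055 (AT3G15500) averaged 1.30 in OX17 and 0.67 in OX7. WRKY28 (AT4G18170), an activator of ICS1, had 1.68 and 1.41 in OX17 and 0.43 and 0.28 in OX7. These 4 genes were thus higher in both transformants, where ICS1 itself was higher on 3 of 4 arrays.

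The list of other synthesis genes had medians of 0.19 in OX17 and 0.06 in OX7. Beside 12.1% of all genes, 1 of its 8 genes was higher on all 4 arrays. That gene was ICS2 (AT1G18870), the second isochorismate synthase gene, at 0.41 and 0.87 in OX17 and 0.23 and 0.41 in OX7. Its probe was dim, with a mean wild-type signal of 6.43 log2 units, and well above background in only 3 of the 4 wild-type channels. PAL2 (AT3G53260), a phenylalanine ammonia-lyase of the alternative phenylpropanoid route, ran the other way, at -0.92 and -0.96 in OX17 and 0.34 and 0.09 in OX7. EPS1 (AT5G67160), an acyltransferase-family enzyme that acts after PBS3, had 1.04 and 0.39 in OX17 and -0.36 and -0.30 in OX7, a pattern of signs like that of EDS5. Its difference was 0.62 in the TaSK5 channel and -0.43 in the wild-type channel.

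The perception list had medians of 0.31 in OX17 and -0.04 in OX7. Beside 12.1% and 12% of all genes, 3 of its 12 genes were above 0 on all 4 arrays and 0 below it. These were the bZIP factor gene TGA1 (AT5G65210), with means of 0.81 in OX17 and 0.05 in OX7, NPR3 (AT5G45110), a relative of NPR1 that represses defence genes, with 0.22 and 0.32, and the cullin gene CUL3B (AT1G69670), with 0.20 and 0.06. NIMIN1 (AT1G02450), a gene for an NPR1-binding protein that salicylic acid induces, averaged 1.31 in OX17 and -0.59 in OX7, with a difference of 0.22 in the TaSK5 channel and -1.69 in the wild-type channel. TGA3 (AT1G22070) averaged 0.94 in OX17 and -0.24 in OX7, with 0.38 in the TaSK5 channel and -0.80 in the wild-type channel. Around EDS1, 0 of 9 genes were higher or lower on all 4 arrays, beside 12.1% higher and 12% lower among all genes. NUDT7 (AT4G12720), a hydrolase that restrains EDS1 signalling, had 1.03 and 1.18 in OX17 and 0.026 and -0.067 in OX7. ACD6 (AT4G14400), an ankyrin protein that amplifies salicylic acid defence, averaged 0.78 in OX17 and -0.15 in OX7. In both, the TaSK5 channel held the difference, at 1.30 for NUDT7 and 1.23 for ACD6, while the wild-type channel differed the same way by 0.18 and 0.30.

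Genes that salicylic acid induces had medians of 0.48 in OX17 and -0.04 in OX7. Beside 12.1% and 12% of all genes, 2 of the 8 were higher and 1 lower on all 4 arrays. GRX480 (AT1G28480), a glutaredoxin gene chosen after its values were seen, could not count among these because its spot on OX17 replicate 2 was an outlier. It had 2.08 on the OX17 array that was read and 0.64 and 0.50 in OX7, and that 1 array stands for OX17 in the median. PR1 (AT2G14610), the usual marker of the response, had 0.26 and 0.66 in OX17 and 0.013 and 0.32 in OX7, with a mean of 0.31 ± 0.21 (SD, n = 2; limma adjusted p = 0.846). Its log2 signals were dim, averaging 7.70 in the TaSK5 and 7.39 in the wild-type channels, against 11.68 and 10.84 for PR2. The offset used in processing pulls ratios of dim spots towards 0, but its part in the PR1 ratios was not tested. PR2 (AT3G57260), a glucanase, had 1.54 and 1.32 in OX17 and -0.11 and 0.61 in OX7, and PR5 (AT1G75040) had nearly the same mean in both, at 0.69 in OX17 and 0.58 in OX7. WRKY54 (AT2G40750) was the gene lower on all 4 arrays, at -0.30 ± 0.22 (SD, n = 2; limma adjusted p = 0.846), and WRKY70 (AT3G56400) averaged 0.50 in OX17 and -0.30 in OX7. The difference of WRKY70 lay mostly in the wild-type channel, at -0.64, with 0.15 in the TaSK5 channel.

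**Figure D4:**
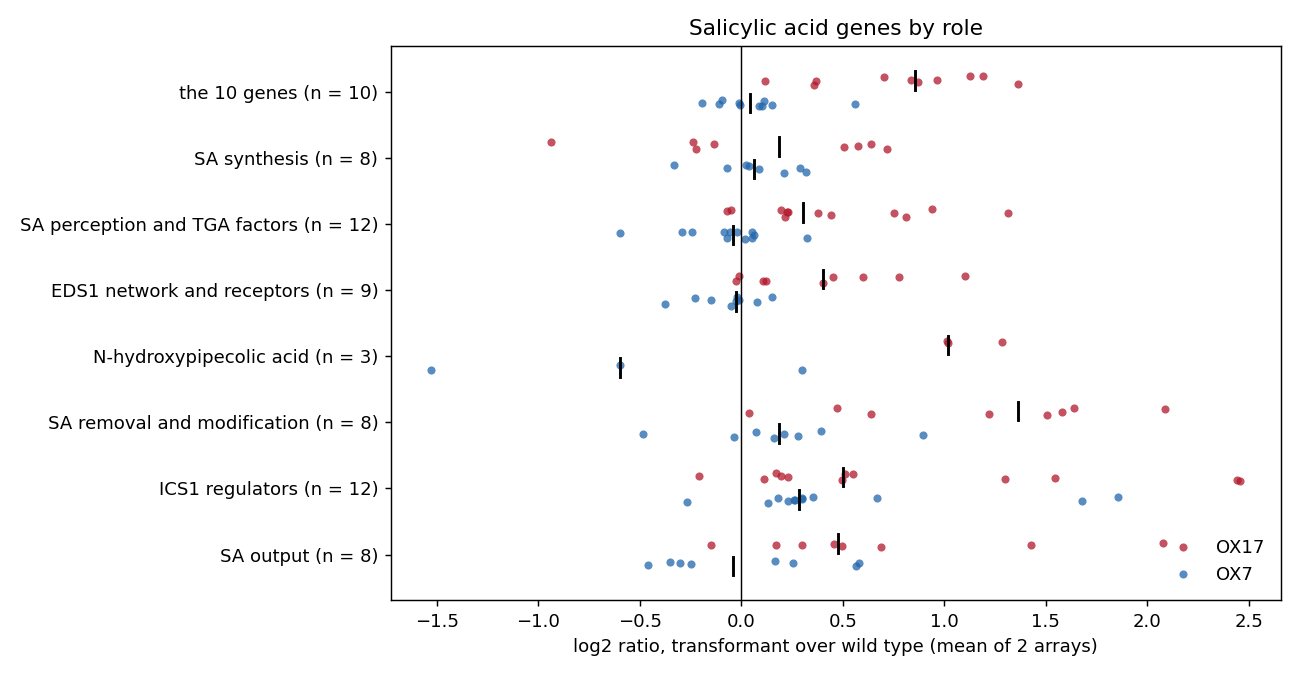
Log2 ratio of transformant over wild type, mean of 2 arrays (horizontal axis), of the 10 genes and of 7 lists of other salicylic acid genes (rows), with OX17 in red above OX7 in blue and black bars at the list medians. SA stands for salicylic acid. GRX480 in OX17 is the exception, with the value of 1 array. The OX17 medians of all 8 rows lie to the right of the OX7 medians, and the removal and modification genes have the highest OX17 median, 1.36.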

How the data were processed

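Total RNA of rosette leaves was labelled by linear amplification (500 ng) and hybridised to 4 two-colour arrays; plants grew at 22 °C with 16 h light. Per the file headers, Agilent Feature Extraction 7.5.1 produced the mean and local background intensity of every spot in each dye, and a log10 ratio of Cy5 over Cy3 after spatial detrending and lowess dye normalisation. The authors deposited a table of log2 ratios that the submitters' processing notes tie to limma. Its direction, found against the scanner values, was Cy5 over Cy3 (r from 0.993 to 0.999 with the ratios used here), its column medians were -0.0054 and 0.0049 for OX17 and -0.0041 and 0.0036 for OX7 (replicates 1 and 2), and how it was background-corrected, normalised or centred is not given in the sources used here.

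From the intensities, limma 3.58.1 (R 4.3.3) gave ratios by normexp with offset 50, then loess within each array, with 1075 control spots at weight 0. Outlier-flagged spots were left out. Ratios were turned to TaSK5 over wild type. Kept probes were well above background throughout the 4 TaSK5 or throughout the 4 wild-type channels. Repeat arrays were averaged, and the 2 transformant means were tested against 0 with a two-sided moderated test (lmFit, eBayes; 1 residual and 2.00 prior degrees of freedom), adjusted by Benjamini-Hochberg over 18854 genes at 0.05. Loess sets the typical ratio to 0, and the offset pulls ratios of dim spots towards 0. Channel levels came from loess ratios with Aquantile scaling.

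The 10 genes, the other lists and the alternatives were chosen with earlier results of these data known. Named list genes were up to 4 per list with the largest ratio among those of 1 sign on all 4 arrays, and up to 2 with the largest difference between transformants without overlap of arrays. Gene symbols were looked up by locus in a RefSeq table (assembly TAIR10.1), which held 83 of 87. Coordinates are left out because the files name no build. Alternatives were other background corrections, normalisations, sources of ratios, filters and replicate units, and leaving out each array.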

Additional observations from a re-analysis of the deposited data

Results flagged for a closer look

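In 4 of the 10 genes every OX17 array lay above wild type and every OX7 array below it, as in 7.81% of all genes; the difference was not tested, since each transformant had 1 RNA pair. The OX17 minus OX7 log2 difference was 1.32 for EDS5, 1.29 for EDS1, 0.48 for SARD1 and 0.13 for SAG101, of which 3 of 4 arrays lay at about 0. The OX7 mean was below 0 under all 14 alternatives for EDS5, EDS1 and SARD1, and under 13 of 14 for SAG101. Array by array, the pattern held under all 14 for SARD1 but not for the others. Alternatives that changed only the probe filter or kept flagged spots could not alter it, since the members' ratios stayed the same. For EDS5, OX7 replicate 2 stood at 0.14 with the Agilent processed log ratio. For EDS1, OX7 replicate 1 stood at 0.022 in the authors' deposited table and at 0.0024 without background subtraction. For SAG101, an OX7 array stood at 0.021 with the Agilent ratio and at 0.0070 without background subtraction, both stood above 0 with median centring, at 0.056 and 0.22, and OX17 replicate 1 stood at -0.0013 in the authors' deposited table. AT3G48080, the EDS1-like gene, had a difference of 1.36.

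Of the 60 list genes, 21 had opposite signs in the transformants, beside 16.9% of all genes. Those given here were named for their large differences between transformants, so the size of these differences follows from that choice. None was tested. The differences were 1.05 for EPS1, 1.91 for NIMIN1, 1.18 for TGA3, 0.93 for ACD6, 2.54 for UGT76B1, 1.61 for AT5G52810, 2.12 for DMR6, 1.61 for BSMT1 and 0.80 for WRKY70. For PAL2 it was -1.15, with OX17 below wild type and OX7 above it. The wild-type channel held the larger part for NIMIN1, TGA3, UGT76B1, AT5G52810 and WRKY70, and the TaSK5 channel for the other genes named in this paragraph.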

How the results depend on the processing

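Across 16 alternatives the mean log2 ratio of a member kept its sign and stayed short of the threshold in 159 of 160 cases. The exception was SAG101, at -0.0014 without OX17 replicate 2, in a range of -0.0014 to 0.108 over the arrays left out. No member passed under any alternative. Alternatives that changed only the probe filter or kept flagged spots left every member ratio unchanged, so their cases could not differ in sign or size. Taking the arrays as independent likewise left the mean ratios unchanged. The OX17 minus OX7 difference kept its sign in all 140 cases, these fixed ones included, and moved by more than the spread between arrays in 24. Its values ran from 0.24 to 0.98 for PBS3, with the lowest under scaling between arrays.

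The count of members 2-fold higher on both OX17 arrays was 0 with median centring, 0 with scaling between arrays and 5 with the Agilent processed log ratio. Leaving out each array in turn gave 2 to 5, with 5 without OX17 replicate 2. Members higher on all arrays were 1 with median centring and 2 to 4 when an array was left out, 4 without OX7 replicate 1 and 4 without OX7 replicate 2. Members with all OX17 arrays above all OX7 arrays numbered 8 with median centring, 9 with scaling between arrays and 10 otherwise. The OX17 median was 0.64 with scaling. The OX7 median, close to 0 throughout, was 0.0291 without background subtraction, 0.0468 with the background median subtracted, 0.0476 with normexp at offset 0, 0.0573 with scaling, 0.0561 with the Agilent ratio and 0.0431 in the authors' deposited table. It turned to -0.0289 with median centring, and ran from -0.0068 to 0.0412 with an array left out. The cause of these shifts was not tested.

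With each of the 4 arrays taken as a plant of its own, limma called 66 genes higher and 13 lower, 0 of them members. The replicate number stands for the dye orientation, so it pairs no plants, though deviations of same-numbered arrays correlated with r = 0.56 across genes. With this replicate block, 1 gene was called higher and 0 lower, and 0 members.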
